A study of Mus musculus with 27 samples.

Results

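DNA methylation was measured by reduced representation bisulfite sequencing, which reads CpG methylation in short restriction fragments rich in CpG islands and gene starts, in C2C12 cells. These are myoblasts of an established mouse line, which withdraw from division and fuse to form myotubes in low serum. The cells were differentiated in 2% horse serum, given 50% horse serum for 2 h and collected every 6 h from 12 h to 60 h afterwards, per the labels, with 3 libraries at each of 9 times. The comparison described here sets the 3 libraries of 42 h against the 6 libraries of the neighbouring times, 3 at 36 h and 3 at 48 h, out of 27 libraries in all. All 9 libraries share the cell line, the differentiation medium and the serum shock. By the labels they differ only in the time since the shock and the replicate number. Time since the shock is also time in culture, and these cannot be told apart. Unshocked cells were not analysed here. The labels do not say whether replicates were separate cultures, so the spread against which differences are tested is that of these samples and may be technical. The labels write the restriction enzyme as MpsI; this assay commonly uses MspI, which cuts at CCGG.

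Of 917726 autosomal positions, 886890 had a level in all 9 libraries. They were joined into runs wherever the gap between positions was at most 100 bp, and runs of fewer than 3 positions were dropped, which left 23878 runs with a median of 22 positions and 242 bp. The value of a run is the mean methylation level of its positions in a library, in percent, and differences are in percentage points. A level is the share of methylated copies over all cells and both alleles, so a shift in a few cells and a small shift in all of them cannot be told apart. How many reads stand behind a level is unknown. Judged by the 18 libraries outside the comparison, 59.6% of runs were low (under 10% methylated), 37.5% were intermediate and 2.89% were high (over 90%).

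A brief exposure to concentrated serum brings the circadian clocks of cells in a dish into step. The clock is a loop in which the transcription factors CLOCK and BMAL1 (gene Arntl) switch on the Per and Cry genes, whose proteins then repress them, while the receptor REV-ERB (Nr1d1) represses Arntl. CpG methylation is placed by the DNMT3 enzymes, copied at replication by DNMT1 and removed with the help of TET enzymes. It is low at most CpG-island gene starts, high over silenced germline genes, and present on only the maternal or the paternal allele at imprinted regions.

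The sequences of 5 gene starts that the results below return to are printed first, because they show which CpGs lie behind a run's level. Each is the 250 bases before a RefSeq gene start on GRCm38.p6, written 5′ to 3′ on the strand of the gene, and capitals mark CpGs with a measured position. The Slc13a5 window (chr11:72266605-72266854, minus strand) holds the whole of a run that was low at 42 h, with 10 of its 13 CpGs measured. The Caln1 window (chr5:130369208-130369457, plus strand) is poor in CpGs, all 4 of which were measured. The Igf2r window (chr17:12769707-12769956, minus strand) and the Mcts2 window (chr2:152686898-152687147, plus strand) belong to imprinted genes, with 25 of 27 and 17 of 20 CpGs measured. The Ralgps2 window (chr1:156939388-156939637, minus strand) is a dense CpG island with 12 of 45 CpGs measured.
Slc13a5: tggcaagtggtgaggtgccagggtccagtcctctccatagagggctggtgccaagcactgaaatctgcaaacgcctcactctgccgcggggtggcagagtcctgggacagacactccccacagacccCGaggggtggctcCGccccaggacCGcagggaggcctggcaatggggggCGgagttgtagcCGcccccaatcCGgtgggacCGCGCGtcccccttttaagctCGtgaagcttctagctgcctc
Caln1: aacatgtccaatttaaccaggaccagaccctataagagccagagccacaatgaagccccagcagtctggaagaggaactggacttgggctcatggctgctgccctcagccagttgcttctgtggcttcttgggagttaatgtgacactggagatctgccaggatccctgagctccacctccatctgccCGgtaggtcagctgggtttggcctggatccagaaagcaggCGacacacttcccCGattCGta
Igf2r: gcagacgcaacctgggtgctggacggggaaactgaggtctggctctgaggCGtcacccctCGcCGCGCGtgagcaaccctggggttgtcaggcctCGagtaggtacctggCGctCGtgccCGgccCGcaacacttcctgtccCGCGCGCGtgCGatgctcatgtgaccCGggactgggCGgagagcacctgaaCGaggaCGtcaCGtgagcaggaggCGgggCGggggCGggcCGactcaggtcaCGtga
Mcts2: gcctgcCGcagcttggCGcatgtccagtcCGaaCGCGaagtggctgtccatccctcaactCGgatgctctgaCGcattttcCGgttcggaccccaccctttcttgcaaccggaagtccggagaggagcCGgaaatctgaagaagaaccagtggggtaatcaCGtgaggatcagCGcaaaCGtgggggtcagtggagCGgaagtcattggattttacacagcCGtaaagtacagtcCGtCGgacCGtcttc
Ralgps2: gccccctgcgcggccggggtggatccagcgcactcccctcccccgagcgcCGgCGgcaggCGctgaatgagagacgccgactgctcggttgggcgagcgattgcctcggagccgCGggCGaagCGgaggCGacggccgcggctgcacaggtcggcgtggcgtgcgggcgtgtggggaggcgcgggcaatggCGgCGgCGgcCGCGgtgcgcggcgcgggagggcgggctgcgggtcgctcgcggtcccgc
The palindromic letters CCGG, which read the same on both strands, occur once or more in each of these windows and in 47.7% of all 31365 RefSeq promoter windows of this length. The letters CACGTG, the core of the E-box to which CLOCK and BMAL1 bind, occur 2 times in the Igf2r window and 1 time in the Mcts2 window, and in 6.02% of all windows. They do not occur in the printed windows of Slc13a5, Caln1 and Ralgps2.

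No run differed between 42 h and the mean of its neighbours past the threshold. With limma and the replicate number as a block, 0 of 23878 runs (0%) had a Benjamini-Hochberg adjusted p under 0.05, and the smallest adjusted p was 0.738. An unadjusted p under 0.05 was reached by 958 runs (4.01%), of which 503 (2.11%) were higher and 455 (1.91%) were lower at 42 h. All 3 libraries of 42 h lay above all 6 of the neighbours in 240 runs (1.01%) and below them in 257 runs (1.08%). The median run stood at 5.87% at 36 h, 6.08% at 42 h and 6.47% at 48 h. Against 36 h alone, 0 runs (0%) passed and 856 (3.58%) had an unadjusted p under 0.05, 429 higher (1.8%) and 427 lower (1.79%). Against 48 h alone, 0 runs (0%) passed and 1101 (4.61%) had an unadjusted p under 0.05, 486 higher (2.04%) and 615 lower (2.58%). These comparisons share the 42 h libraries and are not independent of each other.

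The precision differed by level. The median standard error of the difference was 1.31 points in low runs, 3.28 points in intermediate runs and 2.06 points in high runs. The 95% interval lay within 5 points of 0 in 38.6% of all runs, within 10 points in 70.0% and within 20 points in 91.4%. In intermediate runs the interval lay within 10 points of 0 in 41.3% and within 20 points in 81.6%. At the remaining runs the interval takes in differences of that size, which are therefore not excluded there.

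**Figure D1:**
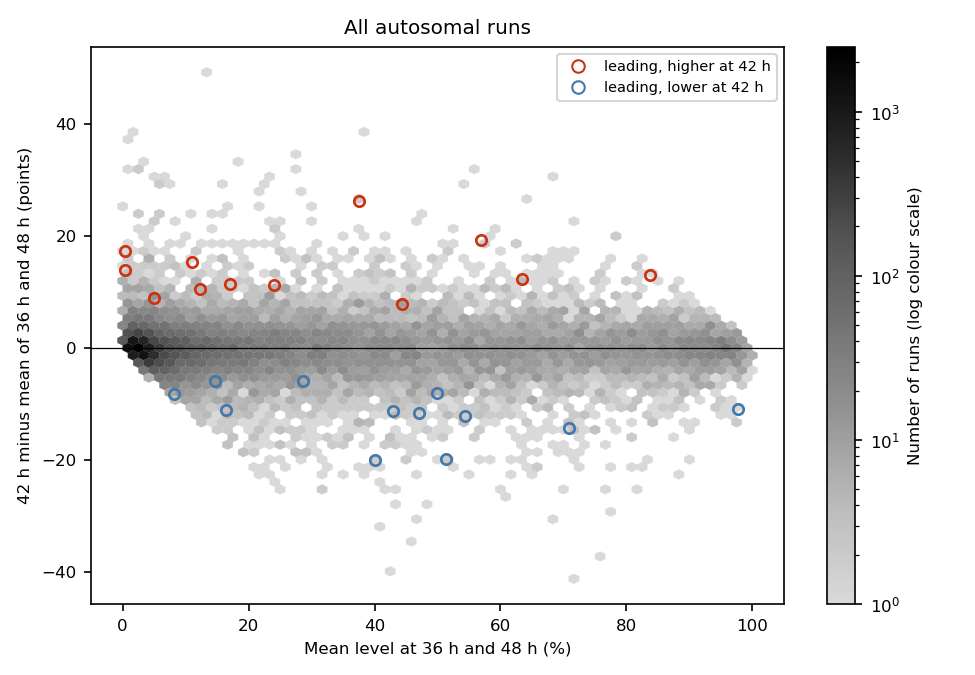
Difference of each of the 23878 runs (42 h minus the mean of 36 h and 48 h, in percentage points) against its mean level at 36 h and 48 h (percent). Grey hexagons count runs on a log colour scale, and circles mark the 12 leading runs in each direction, which lie between 7.91 and 26.2 points above and between -5.97 and -20.04 points below the line at 0.

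The mean level over all runs did not separate the times. It was 19.3%, 19.9% and 19.8% at 36 h, 19.9%, 19.7% and 19.7% at 42 h, and 19.7%, 19.7% and 20.8% at 48 h, for replicates 1 to 3. The 42 h libraries lay within the range of the others. The difference was -0.0823 points (two-sided exact permutation p = 0.815 over 27 arrangements within replicate number, which can give no p below 0.0370). The difference was -0.0502 points over low runs, -0.141 points over intermediate runs and 0.0153 points over high runs, with adjusted exact permutation p = 0.889 for each of the 3 classes. The share of positions listed at exactly 0 ran from 8.44% to 22.3% among the 9 libraries. It was high in replicate 1 of each time (19.5%, 21.2% and 22.3%) and in replicate 3 of 48 h (20.5%), and its part in the results was not tested.

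The counts were also split by place, with no test between places. The list of RefSeq promoter windows lacked a chromosome and some further genes. Runs at the starts of those genes were therefore counted as away from a window. The runs of Per2, Myod1 and Pax3 described here, for example, cross an end of the gene but were given no window. Among 8987 runs over a RefSeq promoter window the median level at 42 h was 3.33%, and 2.51% had an unadjusted p under 0.05. The share was 4.78% among 12958 runs inside or overlapping a gene away from such a window, whose median level at 42 h was 9.68%. It was 5.84% among 1865 runs outside genes but within 2000 bp, where the median level at 42 h was 23.1%. The 68 runs farther from any gene had a share of 4.41% and a median level at 42 h of 43.2%.

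The runs described next are the 12 with the smallest p in each direction among those with a difference of at least 5 points. None passed the threshold, and the values are a description of where 42 h stood farthest from its neighbours relative to the spread. The adjusted p was 0.738 for the runs at Sall4 and Ap5b1 and 0.980 for the other 22. Of the 12 higher runs, 7 had all 42 h libraries above all neighbours, and of the 12 lower runs, 9 had them below. Over all runs these shares were 1.01% and 1.08%. The runs were chosen by p in this same comparison, so these counts follow largely from the choice. They are ordered by what their genes are known for, an order made after the values were seen, and no such group was tested. Exons, introns and UTRs were not resolved here; places are given from RefSeq gene ends.

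**Figure D2:**
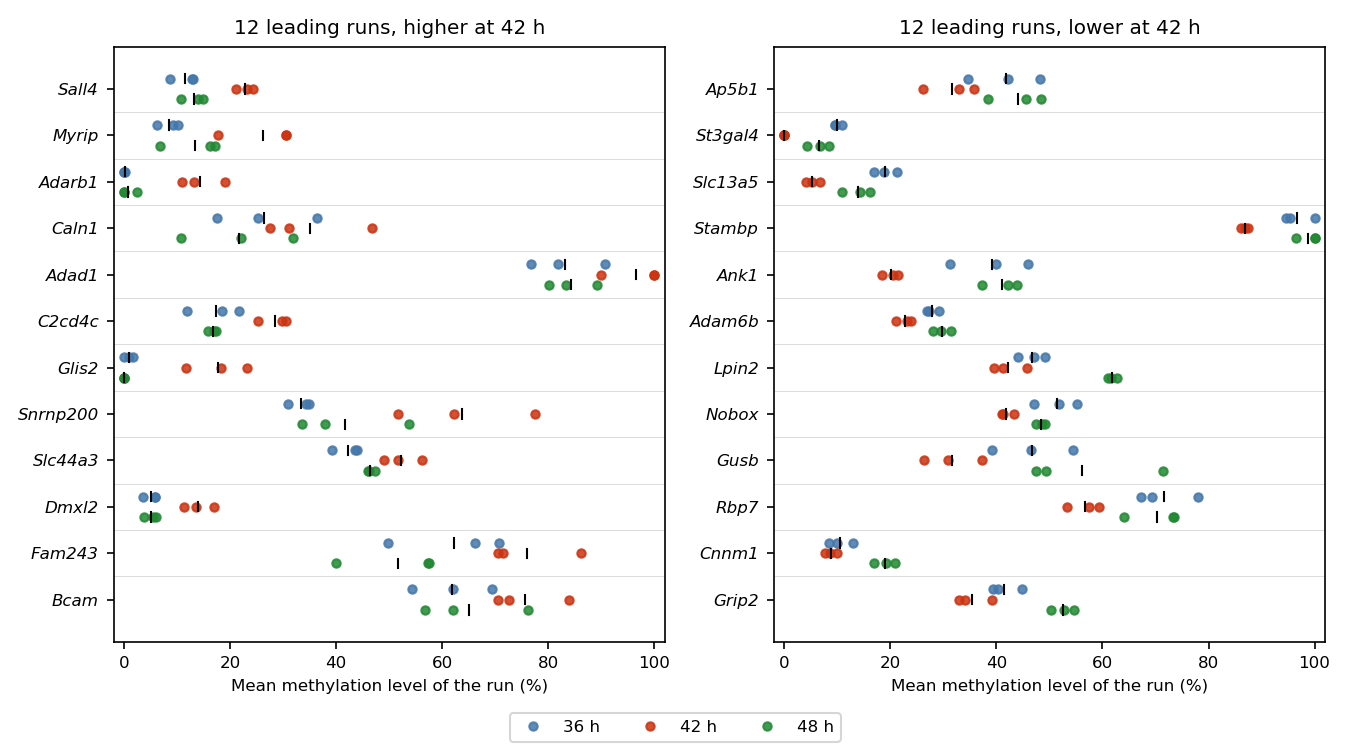
Mean methylation level (percent) of the 12 leading runs higher at 42 h (left) and the 12 lower (right), named by gene. Each dot is a library, coloured by time, and each black tick is the mean of 3 libraries. The red dots of 42 h stand apart from all others in 7 runs on the left and 9 on the right. The runs were chosen by p in this comparison, and over all runs the shares were 1.01% above and 1.08% below.

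Transcription factor genes come first. The run 78 bp beyond the end of Sall4 with the higher coordinate (chr2:168767279-168767413, 12 positions), a zinc-finger factor of pluripotent cells and limb development, stood at 12.9%, 8.58% and 12.98% at 36 h, 23.2%, 21.1% and 24.2% at 42 h, and 14.8%, 10.7% and 13.9% at 48 h. Every 42 h library lay above every neighbour. The difference was 10.5 points (SE 0.861, 95% interval 8.36 to 12.7). At Glis2 (chr16:4594287-4594515, 14 positions), another zinc-finger factor, the run crossed the lower end of the gene and was at 0% to 1.63% at 36 h, 11.7% to 23.2% at 42 h and listed at 0 in all libraries of 48 h. The difference was 17.3 points (SE 2.31), but over positions with a value in all 27 libraries the means were 4.77% at 36 h, 5.95% at 42 h and 0% at 48 h. At Nobox (chr6:43310211-43310387, 7 positions), a homeobox gene of the oocyte, the run lay 139 bp upstream of the gene and ranged from 47.1% to 55.1% in the neighbours and from 41.0% to 43.2% at 42 h. The difference was -8.08 points (SE 1.36).

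Membrane transport and the cell surface are next. Slc13a5 encodes the plasma membrane citrate transporter, and its run (chr11:72266605-72266726, 12 positions) covers the CpGs in capitals in the printed window. It stood at 21.3%, 17.0% and 18.7% at 36 h, 6.63%, 5.13% and 4.07% at 42 h, and 14.2%, 16.2% and 10.9% at 48 h. No 42 h library reached the lowest neighbour, and the difference was -11.1 points (SE 1.40, 95% interval -14.6 to -7.61). A second run upstream of another start of the gene had levels of 73.8%, 73.8% and 74.4% at 42 h over the 10 measured CpGs of that start's window, inside the 53.8% to 80.5% of the neighbours. Slc44a3, a choline transporter-like gene, had a run across its start (chr3:121531918-121532404, 42 positions) at 39.3%, 43.5% and 43.9% at 36 h, 49.1%, 51.6% and 56.1% at 42 h, and 45.9%, 46.1% and 47.4% at 48 h. The groups did not overlap, with a difference of 7.91 points (SE 1.26, 95% interval 4.74 to 11.1). At Bcam, a laminin receptor, the run 280 bp upstream of the gene (chr7:19770812-19771050, 8 positions) had a difference of 12.3 points (SE 2.02), and its 42 h range of 70.5% to 83.9% overlapped the 54.2% to 76.2% of the neighbours.

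Another 7 runs lie at genes of the membrane skeleton, vesicles and synapses. Ank1, whose protein ankyrin ties membranes to the spectrin skeleton and in muscle anchors the sarcoplasmic reticulum, had a run 82 bp before its lower end (chr8:22974596-22974754, 28 positions). It stood at 46.0%, 39.9% and 31.3% at 36 h, 20.4%, 18.4% and 21.4% at 42 h, and 42.1%, 43.9% and 37.3% at 48 h. The 42 h libraries were tightly grouped and below all neighbours, with a difference of -20.04 points (SE 2.77, 95% interval -27.0 to -13.1). Myrip links a myosin to secretory vesicles, and its run (chr9:120304476-120304693, 18 positions), 956 bp inside the gene, ranged from 6.26% to 17.2% in the neighbours. At 42 h it stood at 17.7%, 30.6% and 30.5%, so that replicate 1 lay just above the highest neighbour, and the difference was 15.3 points (SE 1.88). Dmxl2, a regulator of vesicle acidification, differed by 8.94 points (SE 1.44) at a run 495 bp upstream, and Ap5b1, a subunit of an endosomal adaptor, by -11.3 points (SE 1.03). The Ap5b1 run stood at 35.8%, 32.9% and 26.1% at 42 h and overlapped the neighbours, the lowest of which was at 34.7%. At Stambp, an endosomal deubiquitinase, a nearly fully methylated run of 5 positions stood at 94.6% to 100% in the neighbours and at 86.2% to 87.5% at 42 h. The synaptic scaffold gene Grip2 differed by -11.6 points (SE 2.03) over 4 positions, and Caln1 by 11.2 points (SE 1.47). The Caln1 run (chr5:130369396-130369466), which begins in the printed window, stood at 36.3%, 25.3% and 17.5% at 36 h, 46.8%, 31.1% and 27.5% at 42 h, and 31.9%, 22.1% and 10.8% at 48 h. The groups overlapped, and within each replicate number the 42 h library was the highest of the 3. Its standard deviations among libraries (SD) were 9.45, 10.2 and 10.6 points at 36 h, 42 h and 48 h. The small SE therefore depends on the replicate number as a block, and the labels do not say that libraries of 1 number belong together. That also holds at Ap5b1 (SDs from 4.97 to 6.79 points) and Bcam (SDs from 7.18 to 10.1 points).

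Runs at Adarb1, Snrnp200 and Adad1 follow. Adarb1, an RNA-editing deaminase, had a run 426 bp inside its start (chr10:77417712-77417866, 7 positions) listed at 0% to 2.39% in the neighbours and at 10.8%, 13.2% and 19.101% at 42 h. The difference was 14.0 points (SE 1.78). Over the positions of this run with a value in all 27 libraries, the means were 0.168% at 36 h, 0.579% at 42 h and 0.137% at 48 h. Snrnp200, a helicase of the spliceosome, gave the largest difference of the 24 leading runs, 26.2 points (SE 3.88, 95% interval 16.5 to 36.0), over 7 positions (chr2:127209002-127209100). Its levels were 34.3%, 34.8% and 30.9% at 36 h, 77.5%, 62.2% and 51.6% at 42 h, and 53.7%, 37.9% and 33.6% at 48 h. Replicate 3 of 42 h lay below replicate 1 of 48 h, so the groups overlapped. The SD of this run was 2.14 points at 36 h but 23.0 to 30.7 points from 12 h to 30 h. Its mean was 63.7% at 42 h and 55.1% at 60 h. Adad1, a testis gene of the deaminase family, stood at 100%, 100% and 89.9% at 42 h against 76.8% to 90.6% in the neighbours, a difference of 12.9 points (SE 1.71).

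The rest of the leading runs follow. The sialyltransferase gene St3gal4 had a run of 8 positions 361 bp inside its start (chr9:35116374-35116503) that was listed at 0 in all 3 libraries of 42 h. It stood at 9.48%, 10.8% and 9.54% at 36 h and at 4.23%, 8.39% and 6.79% at 48 h, a difference of -8.20 points (SE 1.01). Lpin2, a phosphatidate phosphatase of triglyceride synthesis, had a run 435 bp upstream of the gene (chr17:71182953-71183097, 12 positions) at 47.0%, 49.1% and 44.1% at 36 h, 39.6%, 41.2% and 45.7% at 42 h, and 61.7%, 62.8% and 61.1% at 48 h. Here 48 h stood far above and 42 h overlapped 36 h, so the difference of -12.1 points (SE 1.83) came largely from 48 h. Cnnm1 was alike, with 7.70% to 9.87% at 42 h, 8.35% to 12.98% at 36 h and 17.0% to 20.8% at 48 h. The lysosomal glucuronidase gene Gusb differed by -19.9 points (SE 3.35) and the retinol-binding gene Rbp7 by -14.2 points (SE 2.43), both without overlap. The remaining leading runs lay at C2cd4c (11.5 points, SE 1.52), Fam243 (19.2 points, SE 3.13) and 813 bp upstream of Adam6b, a sperm gene (-5.97 points, SE 0.862). At Fam243 the groups overlapped, since the lowest 42 h library was at 70.5% and replicate 1 of 36 h at 70.8%.

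The levels along a run showed how a difference was spread. Set against the mean of both neighbouring times, at Sall4 all 12 positions were higher at 42 h, by 6.34 to 11.7 points, and at Slc13a5 all 12 were lower, with differences from -15.3 to -8.35 points. At Ank1 all 28 positions were lower, from -30.2 to -8.47 points. At C2cd4c the sign turned along the run, with 31 of 40 positions higher and differences from -14.2 to 31.4 points. At Slc44a3, 36 of 42 positions were higher. Levels at adjoining positions followed each other closely in these runs, so positions within a run are not independent measurements. The sources used here do not say how the level at each position was made.

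**Figure D3:**
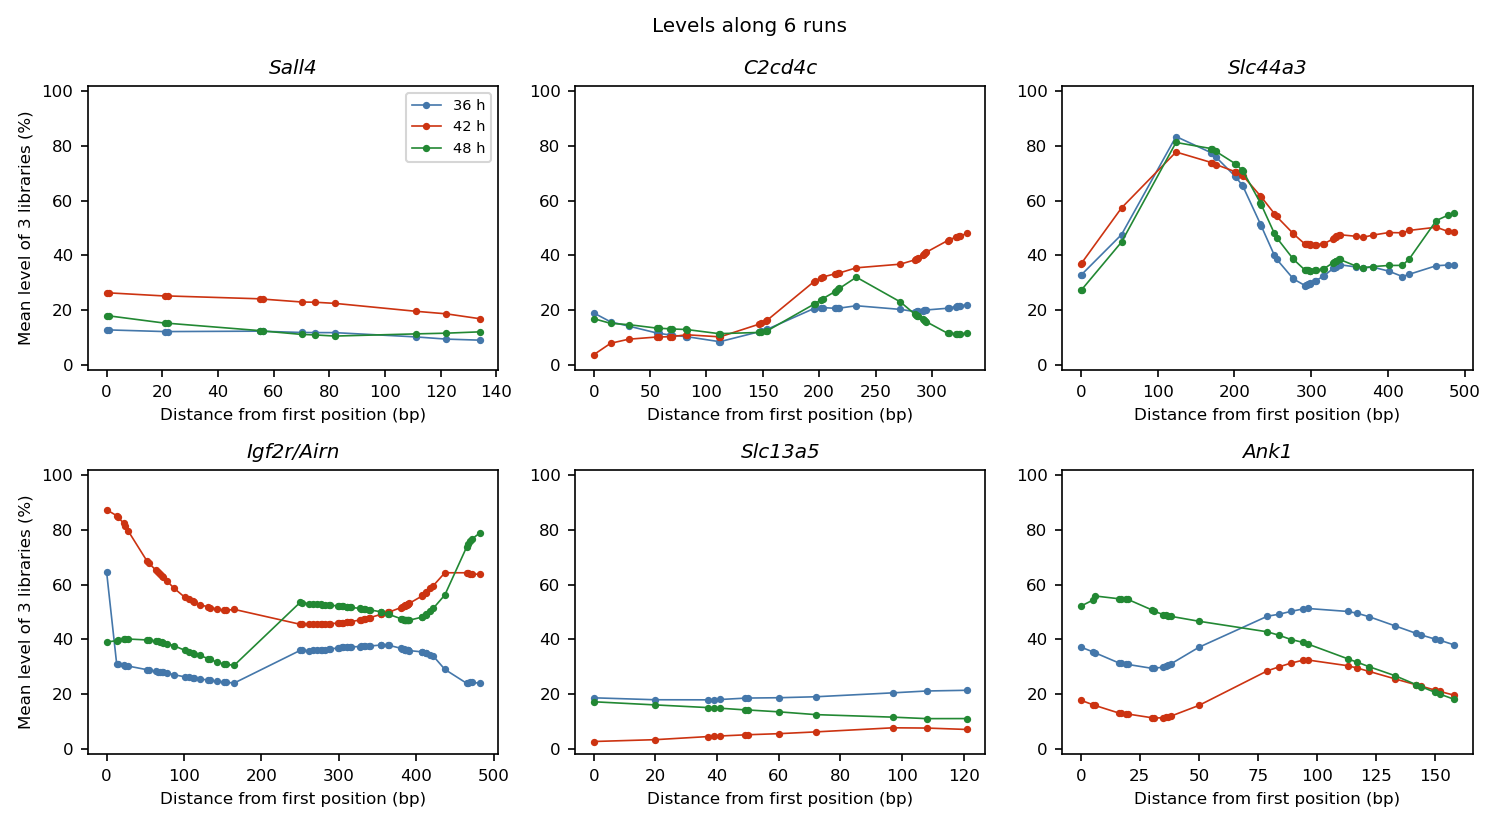
Mean level of 3 libraries (percent) at each measured position along 6 runs, against the distance from the first position of the run (bp), for 36 h, 42 h and 48 h. The 42 h line lies above the others along Sall4 and below them along most or all of Slc13a5 and Ank1, and it crosses them at C2cd4c, Slc44a3 and Igf2r/Airn.

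Runs of clock genes had a low median level, but not all of them were low. Means over the 9 libraries reached 73.9% at a run of Rorb and 45.2% at a run 1676 bp from Bhlhe40. They reached 71.5% at a run that overlaps the gene Mip and was counted for Timeless, within 2000 bp. The other Timeless run stood at 0.716%. The list held 26 genes, 24 of which had 59 runs; 0 passed, 0 were higher and 2 were lower at an unadjusted p under 0.05 (3.39%, beside 4.01% of all runs). The median difference was -0.667 points, beside -0.121 points over all runs, and the median level at 42 h was 4.05%. In the negative limb, the run of Cry1 with most positions (chr10:85184270-85185021, 155 positions), which begins 33 bp inside the gene start, stood at 3.93%, 3.65% and 3.72% at 36 h, 4.78%, 2.11% and 1.85% at 42 h, and 5.25%, 4.03% and 4.81% at 48 h. The 42 h libraries overlapped the others, with a difference of -1.32 points (95% interval -3.59 to 0.947). The smallest p of the list belonged to a neighbouring Cry1 run of 9 positions (chr10:85183911-85184135) at 0%, 4.70% and 4.56% at 42 h, against 3.36% to 9.45% in the neighbours, a difference of -3.74 points (SE 1.21, limma adjusted p = 0.980). Per1 differed by -1.05 points (95% interval -7.16 to 5.07), and its sign turned without replicate 3 of 42 h (0.480 points) or without replicate 3 of 48 h (0.687 points). Per2 differed by 1.67 points (95% interval -1.30 to 4.64), and there replicate 1 of 42 h stood at 5.36% while the other 8 libraries were between 0.581% and 1.48%; without that library the difference was 0.174 points.

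The positive limb and the output genes come next. Clock (chr5:76303780-76304554, 146 positions) differed by 0.642 points (95% interval -1.64 to 2.92), and Nr1d1, which encodes REV-ERB alpha, by -0.710 points (95% interval -3.44 to 2.02). Bhlhe40, a repressor at E-boxes, differed by -0.509 points (95% interval -2.87 to 1.85). Dbp, a clock output factor, had a run 302 bp upstream (chr7:45704471-45704798, 19 positions) at 4.59%, 7.14% and 5.08% at 36 h, 6.66%, 5.52% and 2.94% at 42 h, and 14.9%, 8.74% and 16.6% at 48 h. There 48 h was the time apart from both others, and the difference of 42 h from their mean was -4.46 points (95% interval -9.69 to 0.769). Arntl had 4 runs with differences from -10.4 to -0.602 points, none with an unadjusted p under 0.05.

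**Figure D4:**
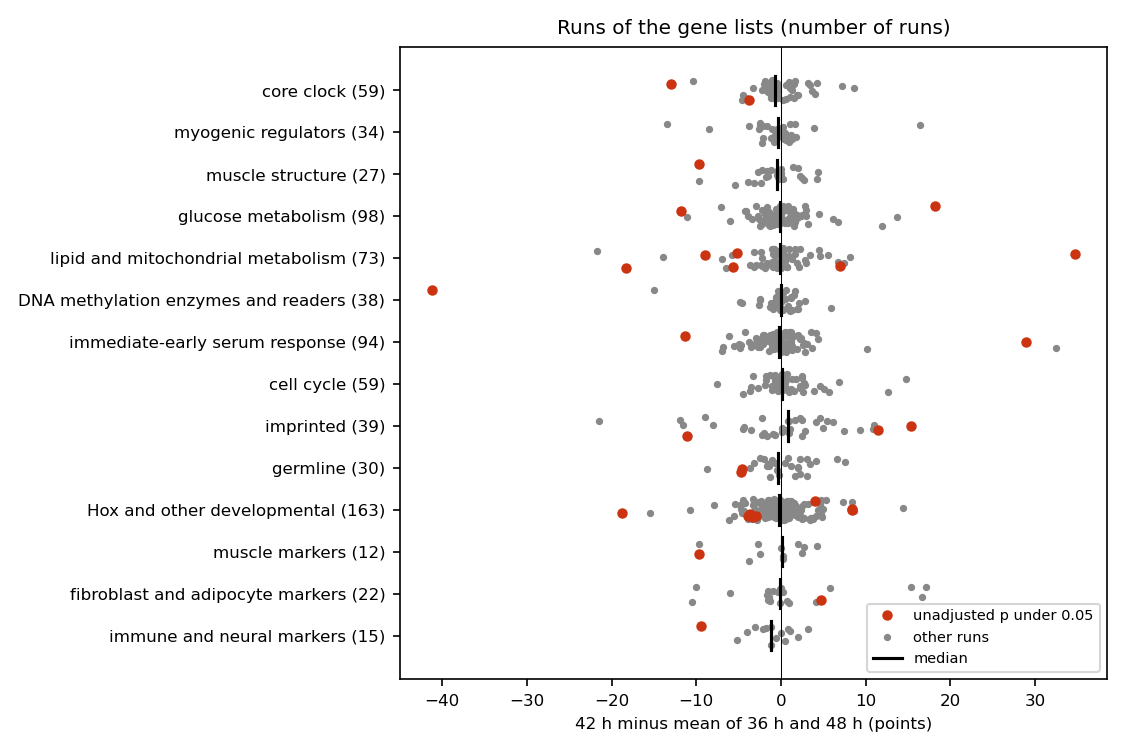
Difference of every run of the 14 gene lists (42 h minus the mean of 36 h and 48 h, in percentage points), with the number of runs in brackets. Red dots have an unadjusted p under 0.05, and black bars are list medians, which lie between -1.17 and 0.840 points.

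Muscle genes had no run past the threshold. Of 23 myogenic regulators, 18 had 34 runs, none of which passed or reached an unadjusted p of 0.05 (0 and 0 runs); their median difference was -0.320 points. Myod1, the factor that commits cells to muscle, was 48.9% to 59.7% methylated at 36 h, 51.4% to 55.4% at 42 h and 55.3% to 62.5% at 48 h over 32 positions at its lower end. Myog, which drives differentiation, was 80.9% to 83.3% methylated at 42 h and 79.5% to 90.1% in the neighbours over 9 positions inside the gene. The smallest p of the list was at Pax3, a factor of muscle progenitors, at 48.9%, 57.8% and 56.3% at 42 h and 53.4% to 76.5% in the neighbours, a difference of -8.56 points (95% interval -19.8 to 2.68). Of 32 structural genes, 16 had 27 runs, of which 0 passed and 1 (3.70%) had an unadjusted p under 0.05, beside 4.01% of all runs, with a median difference of -0.469 points. That run lay inside Acta1, the skeletal muscle actin gene (chr8:123893112-123893310, 13 positions), at 62.2%, 69.8% and 68.4% at 36 h, 47.2%, 55.7% and 61.4% at 42 h, and 62.2%, 64.1% and 59.6% at 48 h. Replicate 3 of 42 h overlapped the neighbours, and the difference was -9.62 points (SE 2.70, 95% interval -16.4 to -2.86).

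Glucose metabolism held 36 genes with 98 runs, of which 0 passed, 1 was higher and 1 lower at an unadjusted p under 0.05 (2.04%, beside 4.01% of all runs); the median difference was -0.169 points. The lower run crossed the start of Pfkp, a phosphofructokinase of glycolysis (chr13:6648995-6649240, 10 positions), at 14.5%, 19.7% and 23.8% at 42 h. It ranged from 26.5% to 30.0% at 36 h and from 23.5% to 46.4% at 48 h, so that the highest 42 h library overlapped the lowest of 48 h. The difference was -11.8 points (SE 3.54). The higher run was in Pfkfb4, a regulator of the same step, at 69.2% ± 6.10 (SD, n = 3) at 42 h, 57.7% ± 6.80 at 36 h and 44.4% ± 12.2 at 48 h over 5 positions. Slc2a4, the insulin-responsive glucose transporter, stood at 21.0%, 25.5% and 20.8% at 42 h and between 17.9% and 29.4% in the neighbours, a difference of 0.0378 points (95% interval -5.81 to 5.89) whose sign turned in 6 of 17 alternatives.

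Lipid and mitochondrial metabolism held 34 genes with 73 runs, of which 0 passed, 2 were higher and 4 lower at an unadjusted p under 0.05 (8.22%, beside 4.01% of all runs); the median difference was -0.139 points. Its smallest p was at Pnpla2, the lipase that begins the breakdown of stored triglyceride, in a run 293 bp inside the gene (chr7:141455481-141455673, 14 positions). The run stood at 0%, 3.37% and 0% at 36 h, 1.83%, 1.23% and 0% at 42 h, and 19.3%, 24.4% and 12.8% at 48 h. Only 48 h was apart, and 42 h overlapped 36 h. The difference of 42 h from both was -8.95 points (SE 1.91), from 36 h -0.102 points and from 48 h -17.8 points. The Pnpla2 run with most positions, 944 bp beyond the gene (69 positions), differed by 2.81 points (95% interval -0.682 to 6.30). The other runs of the list under that p were named after their values were seen. Ucp2, a mitochondrial carrier, stood at 85.7% ± 2.60 (SD, n = 3) at 42 h, below 92.7% ± 3.85 at 36 h and 90.1% ± 2.17 at 48 h, without overlap. Cpt1b, which brings fatty acids into muscle mitochondria, had a run at 77.9% ± 4.95 above all neighbours and another at 69.7% ± 2.501 below them. Cycs, the cytochrome c gene, had a run at 9.02% ± 8.81, and Prkaa2, a catalytic subunit of AMPK, one 1886 bp from the gene at 62.9% ± 16.3; both overlapped the neighbours. No run of Pdk4 or Ppargc1a was present.

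DNA methylation enzymes and readers, 15 genes with 38 runs, had 0 runs past the threshold and 1 (2.63%) at an unadjusted p under 0.05, beside 4.01% of all runs, with a median difference of 0.0329 points. It lay in Dnmt3b, a de novo methyltransferase, 1265 bp inside the gene (chr2:153650676-153650788), and rests on 5 positions. It stood at 91.5%, 41.6% and 61.6% at 36 h, 34.0%, 25% and 31.7% at 42 h, and 83.8%, 84.7% and 65.2% at 48 h. The groups did not overlap, but the libraries of 36 h were themselves far apart, and the difference of -41.2 points had an interval from -63.8 to -18.6 (limma adjusted p = 0.980). The immediate-early serum response list, 26 genes with 94 runs, had 0 past the threshold, and 1 higher and 1 lower at that p (2.13%), with a median difference of -0.191 points. The lower run was 57 bp before Ier2, at 10.9%, 4.67% and 0% at 42 h and 8.33% to 23.9% in the neighbours, and the higher lay 1403 bp from Klf4, where 42 h ranged from 28.3% to 66.7% and the neighbours from 0% to 46.9%. The cell cycle list, 23 genes with 59 runs, had 0 past the threshold and 0 at that p, with a median difference of 0.147 points. Its smallest p was at Cdk6, a G1 kinase, where the run stood at 6.51%, 2.62% and 3.68% at 42 h and at 1.36% to 3.01% in the neighbours, a difference of 2.42 points (95% interval -0.0917 to 4.94).

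Imprinted genes were the most loosely measured list. The 26 genes had 39 runs, and the 95% interval lay within 10 points of 0 in 38.5% of them, against 70.0% of all runs. No run passed (0 of 39), and 2 were higher and 1 lower at an unadjusted p under 0.05 (7.69%, beside 4.01% of all runs), with a median difference of 0.840 points. At the start of Igf2r, the receptor that clears IGF2 and is expressed from the maternal allele, the run across the printed window (chr17:12769423-12769905, 76 positions) stood at 21.7%, 43.0% and 34.1% at 36 h, 56.0%, 58.3% and 52.2% at 42 h, and 41.9%, 53.1% and 47.5% at 48 h. The antisense RNA gene Airn overlaps the same run. All 42 h libraries lay above 36 h, but replicate 3 lay below replicate 2 of 48 h, and the difference was 15.3 points (SE 3.23, 95% interval 7.19 to 23.4). The printed window alone stood at 35.8%, 64.8% and 56.4% at 42 h, 30.8% to 42.8% at 36 h and 49.5% to 59.0% at 48 h. There replicate 1 of 42 h overlapped 36 h. Over positions with a value in all 27 libraries, the mean of the run was 64.9% at 24 h and 54.9% at 42 h. All 76 positions were higher at 42 h than the mean of both neighbouring times, by 0.786 to 50.0 points, but the 42 h and 48 h profiles crossed, and at 4 positions all 42 h libraries lay above all others. At Mcts2, a retrogene expressed from the paternal allele within H13, the run across its printed window (chr2:152686813-152687149, 38 positions) was named after its values were seen. It stood at 37.7%, 38.3% and 40.4% at 36 h, 58.3%, 50.6% and 45.7% at 42 h, and 46.0%, 40.6% and 37.2% at 48 h, a difference of 11.5 points (SE 2.53) and replicate 3 of 42 h lay below replicate 1 of 48 h. At Snrpn and Snurf the run of 7 positions differed by -11.1 points (SE 3.64), within libraries that ranged from 22.9% to 64.6% at 42 h and from 34.1% to 76.5% in the neighbours.

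Germline genes, which are methylated in most body cells, had a median level of 77.8% in the neighbours. The 20 genes had 30 runs with a median level of 77.6% at 42 h, 0 passed and 2 were lower at an unadjusted p under 0.05 (6.67%, beside 4.01% of all runs), with a median difference of -0.315 points. The run 346 bp upstream of Zfp42, a pluripotency factor (chr8:43307355-43307574, 14 positions), stood at 79.6%, 75.6% and 79.7% at 36 h, 74.7%, 70.8% and 75.0% at 42 h, and 78.3%, 76.9% and 79.2% at 48 h. The 42 h libraries lay just below all neighbours, with a difference of -4.70 points (SE 0.884, 95% interval -6.92 to -2.48). Over the full course 42 h was not the lowest, since the mean was 73.0% at 24 h and 73.5% at 42 h. Sohlh2, a factor of germ cell differentiation named after its values were seen, differed by -4.64 points (SE 1.79) over 41 positions, also without overlap.

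Hox and other developmental genes, 51 with 163 runs, had 0 past the threshold and 3 higher and 5 lower at an unadjusted p under 0.05 (4.91%, beside 4.01% of all runs), with a median difference of -0.289 points. The smallest p was 924 bp from Hoxc10, a gene of posterior patterning, at 7.80%, 7.16% and 7.65% at 36 h, 3.53%, 1.69% and 1.94% at 42 h, and 4.39%, 4.83% and 4.46% at 48 h. The groups did not overlap, and the difference was -3.67 points (SE 0.844). Of the runs named after their values were seen, 2 in Hoxd9 differed by 3.997 and 8.42 points. Both overlapped 48 h, with differences of 6.25 and 13.8 points from 36 h and of 1.74 and 3.08 points from 48 h. Hoxa13, Hoxb5 and Hoxc9 differed by -2.93, -3.85 and -3.34 points and Hoxc13 by 8.35 points, and 42 h overlapped a neighbour in each. At Hoxa13 only 48 h was apart, since 42 h differed by -0.108 points from 36 h and by -5.74 points from 48 h. At Meis2 the run was listed at 0 in all 42 h libraries, while the neighbours ranged from 4.58% to 51.5%.

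Marker lists of cell types come last. The muscle markers (6 genes, 12 runs) had a median difference of 0.114 points and 1 run, that of Acta1, at an unadjusted p under 0.05 (8.33%, beside 4.01% of all runs). Fibroblast and adipocyte markers (10 genes, 22 runs) had a median difference of -0.0829 points and 1 such run (4.55%), in the collagen gene Col1a1, at 4.39%, 14.4% and 5.02% at 42 h and 0% to 7.14% in the neighbours. Immune and neural markers (9 genes, 15 runs) had a median difference of -1.17 points and 1 such run (6.67%), in the T-cell gene Cd8a, at 33.4% to 38.2% at 42 h and 39.5% to 55.2% in the neighbours. No run of these lists passed. Expression was not measured, so the labelled cell type cannot be checked by it.

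The time 24 h earlier, the same place in the cycle if its period is 24 h, was examined in libraries that share none with these. Whether these cells kept such a rhythm was not measured here. For 18 h against the mean of 12 h and 24 h, 0 of 22891 runs passed (0%) and 922 (4.03%) had an unadjusted p under 0.05, 525 higher (2.29%) and 397 lower (1.73%). Across those 22891 runs the differences at 42 h and at 18 h had a Pearson r of 0.0378, as a description. Of the 11 higher leading runs with a value at 18 h, 7 differed in the same direction there, and of the 12 lower runs, 6 did; none had an unadjusted p under 0.05 at 18 h. In direct comparison, the difference at 42 h departed from that at 18 h in 0 runs past the threshold (0%), and 912 (3.98%) had an unadjusted p under 0.05, 380 higher (1.66%) and 532 lower (2.32%). The Pfkp run, at -11.8 points at 42 h, stood at 13.2 points at 18 h, and the Igf2r run, at 15.3 points at 42 h, stood at -14.8 points at 18 h. Neither difference between the contrasts passed.

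Against the mean of the other 8 times, 0 of 22513 runs passed (0%), and an unadjusted p under 0.05 was reached by 1028 (4.57%), 741 higher (3.29%) and 287 lower (1.27%) at 42 h. The run with the smallest adjusted p, named after its values were seen, was the CpG island over the printed start of Ralgps2, a guanine nucleotide exchange factor (chr1:156939025-156939666). Over positions with a value in all 27 libraries it stood at 12.0%, 14.3% and 6.23% at 42 h, while the other 24 libraries ranged from 0% to 6.90% with a median of 1.63%. Replicate 3 of 42 h lay below the highest of the others. The difference was 8.89 points (limma adjusted p = 0.0572). Over the 55 positions with a value in the 9 libraries it was smaller, at 9.37%, 11.9% and 5.03% at 42 h and 0.414% to 6.93% in the neighbours, a difference of 5.49 points (SE 1.58, limma adjusted p = 0.980). The printed window alone stood at 42.9%, 5.39% and 12.4% at 42 h and at 1.12% to 15.4% in the neighbours, so that only replicate 1 lay outside their range. The window of a second start, partly in the same run, stood at 0%, 2.98% and 1.39% at 42 h and at 0% to 12.2% in the neighbours.

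Over the full course, 42 h was the highest or the lowest of the 9 time means in 7 of 10 higher and 11 of 11 lower leading runs with values throughout, on which the choice of runs bears. The share over all runs was not counted. Against the other 8 times, an unadjusted limma p under 0.05 was reached by 6 higher and 6 lower leading runs. Some margins were small, as at Nobox (41.8% at 42 h, 42.3% at 18 h) and St3gal4 (0% at 42 h, 1.09% at 60 h). Slc13a5 stood at 5.27% ± 1.29 (SD, n = 3) at 42 h, and its other time means lay between 8.67% at 54 h and 19.5% at 18 h, but single libraries at other times reached 3.88%. Adam6b stood at 22.7% ± 1.502 at 42 h, below each of the other 24 libraries, the lowest of which was at 24.3%. Ank1 stood at 18.5% ± 1.65 at 42 h. Its neighbouring means, 37.5% at 36 h and 47.9% at 48 h, were the highest of the series. The lowest other mean of Ank1 was 24.3% at 30 h, and single libraries at other times reached 11.8%. Against the other 8 times the Ank1 run differed by -11.2 points. Sall4 was not set apart by the full course, since its mean of 21.5% at 18 h was close to the 22.8% of 42 h. Dnmt3b stood at 30.2% ± 4.68 at 42 h and at 62.8% to 80.7% as means of the other times, while its libraries there ranged from 24.7% to 100%. The differences at Adarb1 and Glis2 rest on positions that some of the other libraries lack, as their means over all 27 libraries show.

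**Figure D5:**
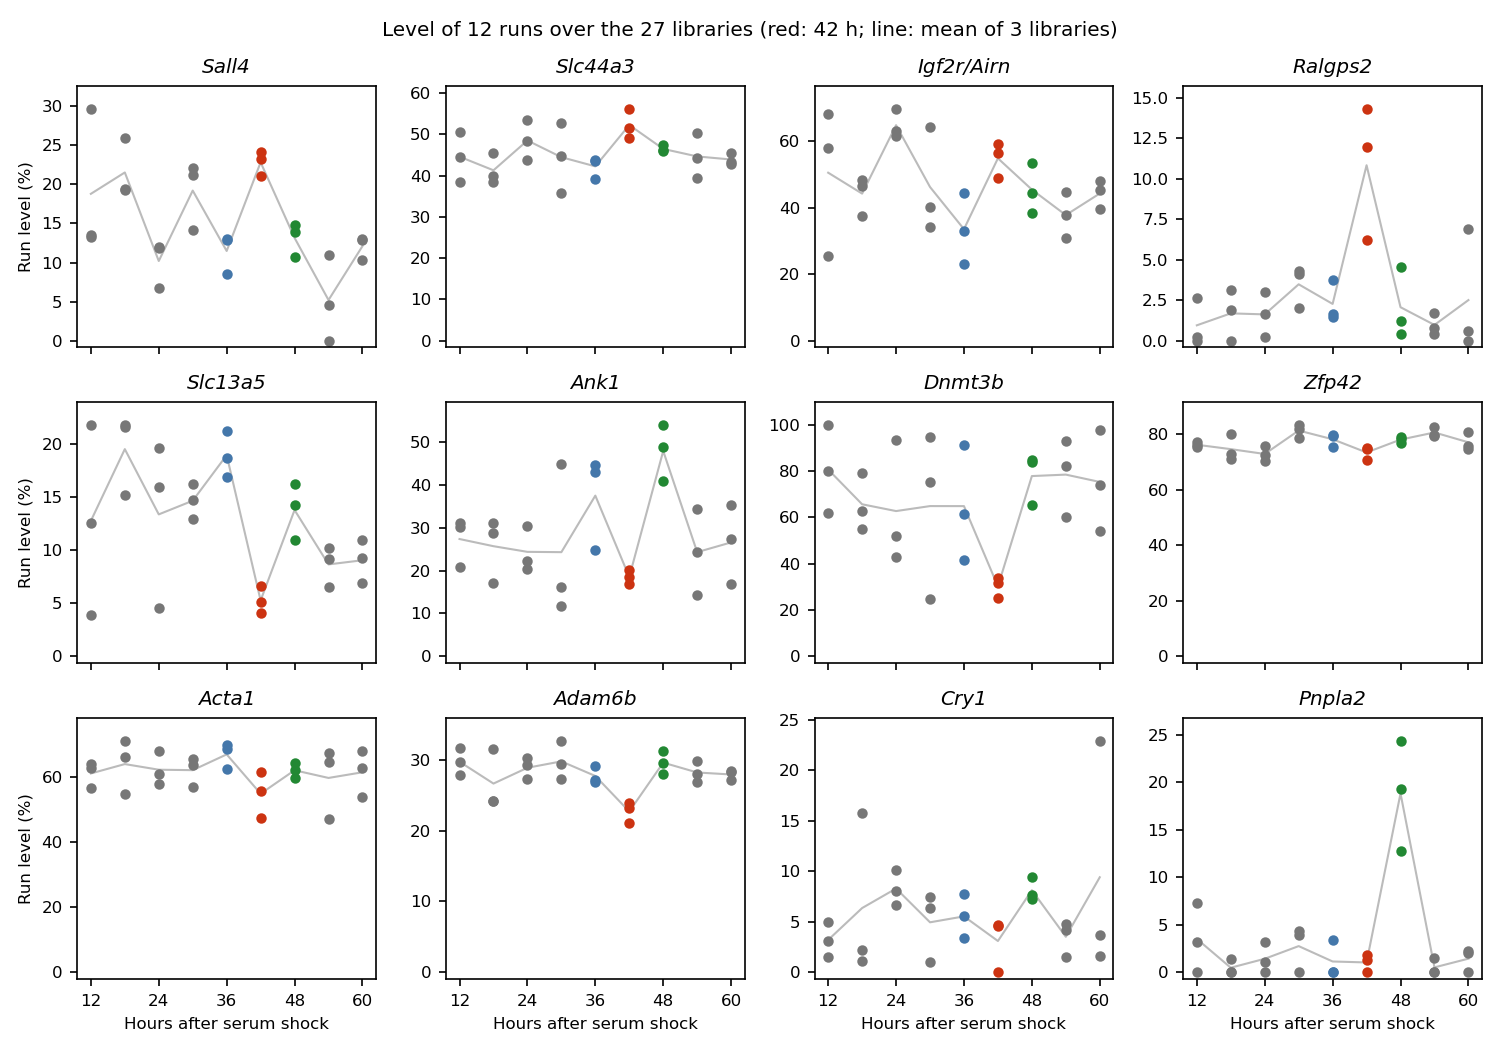
Level (percent) of 12 runs against hours after the serum shock in all 27 libraries, over positions with a value in every library. Dots are libraries (red at 42 h, blue at 36 h, green at 48 h, grey elsewhere) and lines join means of 3; Ralgps2 is high and Slc13a5, Dnmt3b and Adam6b are low at 42 h, whereas Pnpla2 is apart at 48 h.

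Large differences were seen mostly in short and loosely measured runs. A difference of 20 points or more was found in 108 runs, 58 higher and 50 lower, with a median of 6 positions and a median SD at 42 h of 17.6 points, against 22 positions and 2.25 points over all runs. The largest lay in Tfap2d, a transcription factor gene, at 31.3%, 64.1% and 91.5% at 42 h over 5 positions, a difference of 49.1 points with an interval from 14.6 to 83.6. At Efcab10 the 3 libraries of 42 h stood at 0%, 12.8% and 100% over 5 positions, and all 6 neighbours were listed at 0.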

How the data were processed

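The submitters' processing notes name Bismark 0.14.4, Bowtie2, cutadapt 1.9.1, Trim Galore 0.4.0 and the build mm10; the sources used here give no settings, smoothing or coverage filter. The file deposited by the authors lists methylation levels as a fraction (0 to 1) per position and library, per the file headers. It holds no read counts, so depth is unknown and a model on counts was not used. Counting error enters the intervals only as part of the spread between libraries and cannot be separated from it. Here levels were multiplied to percent, joined into runs and fitted with limma 3.58.1 (R 4.3.3; time, replicate number as block, Benjamini-Hochberg over all runs, threshold 0.05). Library means were compared with an exact permutation test (Python 3.11.15). The script was tested on simulated data with normal noise, in which 200 runs were shifted at 42 h. It recovered 0% of them at shifts of 2 and 5 points, 28.5% at 10 points and 66.5% at 20 points. Positions count from 1: 99.98% of 241915 positions in promoter windows then fall in a CG. A run was given to a gene it overlaps or lies within 2000 bp of. Named runs were the 12 with the smallest p in each direction (difference of at least 5 points), the smallest p in each gene list, and the run with most positions of 13 fixed genes. The comparison, lists and genes were chosen with earlier results of these data known. Gene ends and sequences are from RefSeq GRCm38.p6. Alternatives changed the block, gap, scale, filters, moderation and libraries. The values of 1 run counted in the clock gene list are not reported here.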

Additional observations from a re-analysis of the deposited data

How the results depend on the processing

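Depth is unknown, so levels from few and many reads weigh alike. For 42 h against both neighbours the count past the threshold was 0 in all 23 alternatives, with smallest adjusted p between 0.194 and 0.997. Without the replicate block it was 0 against both neighbours, 36 h and 48 h, at 18 h, in the difference between 42 h and 18 h, and against the other 8 times. The deviations of same-numbered libraries over runs had r from -0.00363 to 0.0379 in 9 pairs, none over 0.1, although the share of positions at 0 was high in replicate 1 of all 3 times. In the fit on all 27 libraries, 1 run passed against 36 h, in Rxra (-19.4 points, limma adjusted p = 0.0120), and 2 against 48 h, in Pnpla2 (-17.8 points, adjusted p = 0.00466) and Syt15 (18.3 points, adjusted p = 0.0322); that fit shares 1 spread over all times. Against the other 8 times, trend and robust moderation called 1 run, Ralgps2 (adjusted p = 0.0244). Leaving out libraries, chosen after seeing the data for the remaining comparisons, gave 0 to 12 runs against the other 8 times (7, 12 and 5 without replicates 1, 2 and 3 of 42 h; 1 each without replicate 2 of 18 h, 3 of 24 h, 2 of 30 h and 2 of 60 h) and 0 to 1 for the difference from 18 h (1 without replicate 2 of 42 h). Leaving out libraries moved the mean over all runs between -0.329 and 0.161 points, over low runs between -0.262 and 0.127, over intermediate runs between -0.461 and 0.252, and over high runs between -0.0652 and 0.130. The high runs also reversed with gaps of 200 bp (-0.00311 points) and with positions in all 27 libraries (-0.0289 points). Of 48 named runs, 46 kept their sign and 0 passed in any alternative of the comparison with both neighbours; Per1 ranged from -3.19 to 0.687 points and Slc2a4 from -1.63 to 1.67 points without single libraries or numbers. The causes were not tested.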

Other observations

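The 3 runs that passed only in the fit on all 27 libraries were chosen after their values were seen. In Rxra, a nuclear receptor that partners PPAR and retinoid receptors, the run (chr2:27677886-27677999, 10 positions) stood at 20.4%, 26.3% and 11.5% at 36 h and was listed at 0 in all 3 libraries of 42 h. At 48 h it stood at 5.95%, 0% and 0%. In Syt15, a synaptotagmin gene, the run (chr14:34220958-34221120, 5 positions) stood at 53.2%, 54.7% and 49.4% at 42 h, 39.5%, 41.8% and 48.1% at 36 h, and 29.5%, 37.5% and 35.4% at 48 h. The 42 h libraries lay above all neighbours there, whereas in the Pnpla2 run described above 48 h stood apart.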
